A study of Homo sapiens with 23 samples.

Results

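RNA levels of 30 genes on chromosome 21, from TPTE at 10.91 Mb to HUNK at 33.25 Mb, were followed in 4 ovarian cancer cell lines by RNA-seq. The genes were listed because the values of many of them were lower in prexasertib-resistant than in parental Kuramochi cells, with the lower values placed between TPTE and APP, which starts at 27.25 Mb of the chromosome (GRCh37), and the genes beyond APP taken as flanks. Of the 30 listed genes, 27 were among the 21658 genes of the table, 15 of the 17 up to APP and 12 of the 13 beyond it. LIPI, POTED and GRIK1 were not analysed here. Kuramochi and OVSAHO are widely used models of high-grade serous ovarian carcinoma, and OV-90 and EFO-21 are established ovarian cancer lines. Each line was compared as its parental form with a form made resistant by long exposure to rising concentrations of prexasertib, an inhibitor of the checkpoint kinase CHK1. Each of the 8 groups had 3 libraries, except parental OV-90 with 2. The labels name 1 resistant form of each line, so its libraries measure that form and not repeated selections. Whether the resistant cells were kept in drug at harvest is not given in the sources used here.

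The values are log2 expression values, 1 per gene and library, that were quantile normalized over the libraries. A difference of 1 on this scale is a 2-fold difference of the linear values. Read counts were not used here and the depth of each library is unknown, so precision rests on the spread between libraries alone. The 2 parental OV-90 libraries were less alike (Pearson r 0.952 over genes, the lowest within any group, against 0.988 for the most alike), and results in that line rest on them. A value at or below the 10th percentile of its library (1.70 to 1.87) is called the bottom here, and a difference from a group at the bottom is not a measured fold. Of 6 Müllerian and serous markers, 5 lay above the library median in all libraries of parental Kuramochi, 6 in parental OVSAHO, 4 in parental EFO-21 and 0 in either form of OV-90.

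The long arm of chromosome 21 starts, after the repeats beside the centromere, with a stretch in which protein-coding genes lie far apart, and becomes gene-dense towards its end. The genes of the window share position and not function. They include regulators of protein folding and ubiquitin (HSPA13, USP25, USP16, LTN1, CCT8), adhesion proteins of cell junctions (CXADR, JAM2) and a neural cell adhesion molecule (NCAM2). They also include regulators of transcription (NRIP1, GABPA, BACH1), the amyloid precursor protein APP, the superoxide dismutase SOD1 and the RAC1 activator TIAM1. Several are studied for their extra dose in Down syndrome. In bulk RNA, fewer cells that express a gene and less RNA per cell cannot be told apart, and DNA copy number was not analysed here.

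The values went against the label in one respect. In Kuramochi the large differences did not extend to APP but lay, among the measured members, between HSPA13 and TMPRSS15, a stretch of 4.11 Mb (chr21:15743436-19858197, GRCh37) picked here after its values were seen. All 9 members in it were lower by more than 2 on the log2 scale in resistant than in parental Kuramochi, with a median log2 difference of -3.07, while the 4 members after it, up to APP, had a median of -0.17 and the 12 beyond APP had a median of -0.48. Over all 21658 genes the median was -0.02. Because the genes were chosen on this comparison, the values of the members in it are given as a description, and no p-value is read for them.

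**Figure D1:**
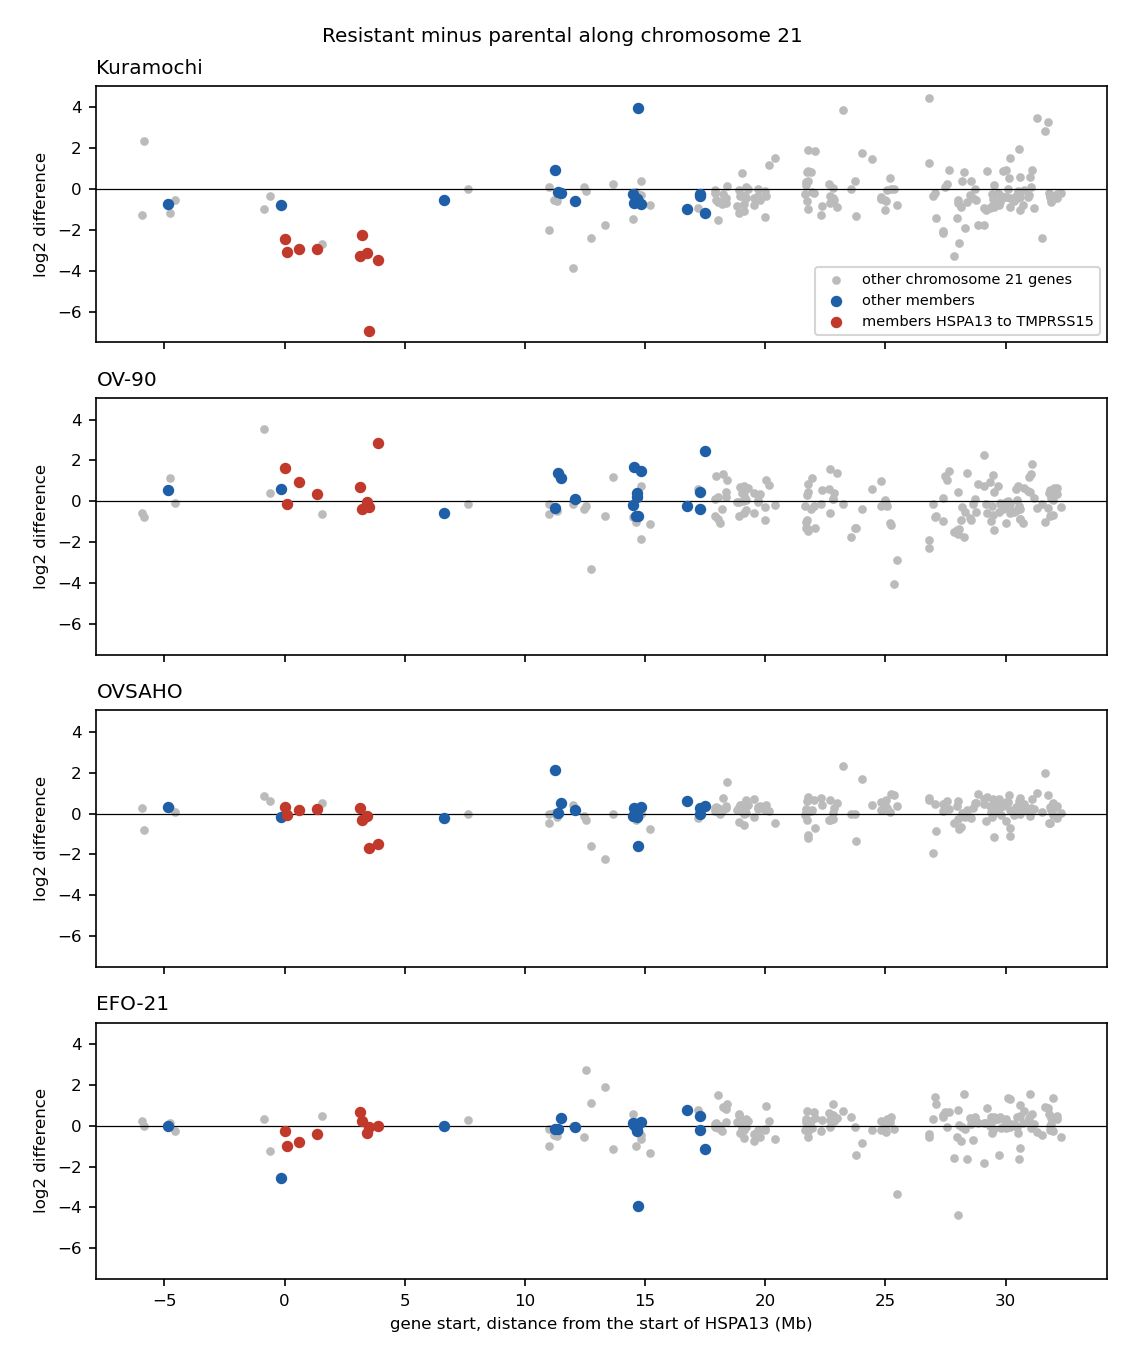
Difference of the mean log2 expression values, resistant minus parental, for each of 205 chromosome 21 genes with a position against the distance of its start from the start of HSPA13 in Mb, 1 panel for each line. In Kuramochi the 9 members from HSPA13 to TMPRSS15 (red) lie between -2.27 and -6.94, and the other members (blue) lie between -1.16 and 3.98.

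The starts of these genes are of different kinds, which is why 4 promoters of the stretch are shown here, from 250 bases before to 50 after the annotated start (RefSeq, GRCh38.p14). Each was found at 1 place on GRCh37 chromosome 21, at chr21:15755418-15755717 (minus strand), chr21:17102051-17102350 (plus strand), chr21:19616900-19617199 (plus strand) and chr21:19776053-19776352 (minus strand). Capitals mark the GC box GGGCGG and the TATA box TATAAA on either strand. All are written 5′ to 3′ on the strand of the gene.
HSPA13: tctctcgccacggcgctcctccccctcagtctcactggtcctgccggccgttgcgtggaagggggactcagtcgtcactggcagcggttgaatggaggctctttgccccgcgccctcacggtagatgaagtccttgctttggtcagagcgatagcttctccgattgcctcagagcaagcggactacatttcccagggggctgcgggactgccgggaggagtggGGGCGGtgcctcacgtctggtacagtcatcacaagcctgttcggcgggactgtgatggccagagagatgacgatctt
USP25: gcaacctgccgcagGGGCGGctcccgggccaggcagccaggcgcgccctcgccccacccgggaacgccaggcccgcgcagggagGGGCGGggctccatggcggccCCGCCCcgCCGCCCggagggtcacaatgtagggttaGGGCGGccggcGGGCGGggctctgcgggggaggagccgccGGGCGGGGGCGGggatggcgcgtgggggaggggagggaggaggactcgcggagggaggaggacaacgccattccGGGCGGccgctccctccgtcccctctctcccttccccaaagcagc
CHODL: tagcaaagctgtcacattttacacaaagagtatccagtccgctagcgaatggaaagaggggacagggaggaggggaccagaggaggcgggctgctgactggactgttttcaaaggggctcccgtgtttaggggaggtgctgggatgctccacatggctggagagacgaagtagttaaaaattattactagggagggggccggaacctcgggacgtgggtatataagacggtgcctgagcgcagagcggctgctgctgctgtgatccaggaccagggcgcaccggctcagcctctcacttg
TMPRSS15: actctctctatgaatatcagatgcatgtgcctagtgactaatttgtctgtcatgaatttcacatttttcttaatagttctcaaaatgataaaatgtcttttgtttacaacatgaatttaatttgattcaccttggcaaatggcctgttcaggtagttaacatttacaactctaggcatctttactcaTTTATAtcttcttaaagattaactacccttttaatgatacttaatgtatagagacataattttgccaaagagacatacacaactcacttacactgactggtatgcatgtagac

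The USP25 promoter held 9 GC boxes, 34 CpG dinucleotides and 79.0% G and C, and the HSPA13 promoter held 1 GC box, 21 CpG dinucleotides and 62.0% G and C. The CHODL promoter held neither motif as spelled, with 13 CpG dinucleotides, but it does hold the similar letters TATATAAG on the strand of the gene. The TMPRSS15 promoter held 1 match to TATAAA, on the strand opposite the gene (TTTATA), no CpG dinucleotide and 31.7% G and C. Only exact letters were searched, so these matches do not settle which start has a TATA box in use. Among 35116 RefSeq promoters of the same length, 45.0% held a GC box and 11.5% a TATA box, and the median promoter had 14 CpG dinucleotides and 58.7% G and C. Promoters rich and poor in CpG thus stood side by side in the stretch. Among the 21 measured members with a promoter in the table, 12 held a GC box and 4 a TATA box, and the ETS motif CCGGAAGT, to which GABPA binds, was in 3 (GABPA, LTN1 and USP16) against 4.14% of all promoters. These are matches of letters and not measured binding.

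Within the stretch, the members concerned with protein folding and ubiquitin were clearly separated between the Kuramochi groups. HSPA13, an HSP70-family protein of microsomes, had log2 values of 9.64, 8.95 and 8.83 in parental and 6.90, 6.82 and 6.39 in resistant Kuramochi (log2 difference -2.44, SE 0.24). The deubiquitinating enzyme USP25 had 8.31, 8.08 and 8.0 in parental and 5.22, 5.30 and 5.0 in resistant libraries (difference -2.96, SE 0.13). For both genes every resistant library lay below every parental one. Turned into a linear ratio, the difference of the mean log2 values left 18.5% of the parental level for HSPA13 and 12.9% for USP25. Percentages of the parental linear level below were computed in the same way.

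NRIP1, a corepressor of nuclear receptors such as the oestrogen receptor, had log2 values of 7.22, 6.11 and 5.81 in parental and 3.53, 3.99 and 2.83 in resistant Kuramochi (difference -2.93, SE 0.46). BTG3, of the antiproliferative BTG/TOB family, had 9.31, 9.38 and 9.44 against 7.10, 7.12 and 7.11 (difference -2.27, SE 0.06). BTG3 had the smallest difference of the 9 and also the smallest SE, and its resistant mean, at 20.8% of the parental linear level, stayed well above the bottom. NRIP1 varied more between libraries, yet its groups did not overlap.

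CXADR, the tight junction receptor of coxsackieviruses and adenoviruses, had log2 values of 7.30, 6.88 and 6.98 in parental and 3.97, 3.85 and 3.54 in resistant Kuramochi (difference -3.27, SE 0.18). The gene next to it, BTG3, is transcribed on the other strand and had the smaller difference. C21orf91, which encodes the protein EURL, had 7.68, 7.36 and 6.99 against 3.97, 4.32 and 4.41 (difference -3.11, SE 0.22). In neither gene did the groups overlap.

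The other 3 members of the stretch ended at the bottom in resistant Kuramochi. CHODL, which encodes the membrane lectin chondrolectin, had log2 values of 7.96, 8.03 and 7.96 in parental and 0.74, 0.77 and 1.64 in resistant libraries. Its log2 difference of -6.94 was the largest of the 27 and is not a measured fold, since all resistant values lay at the bottom. TMPRSS15, the intestinal protease enterokinase that activates trypsinogen, had 3.45, 4.11 and 4.03 against 0.72, 0.16 and 0.31. SAMSN1, an adaptor protein of blood cells measured from 1 exon, had 2.74, 3.88 and 3.91 against 0.00, 1.31 and 0.00. TMPRSS15 and SAMSN1 were weak in parental cells too, and CHODL was not.

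**Figure D2:**
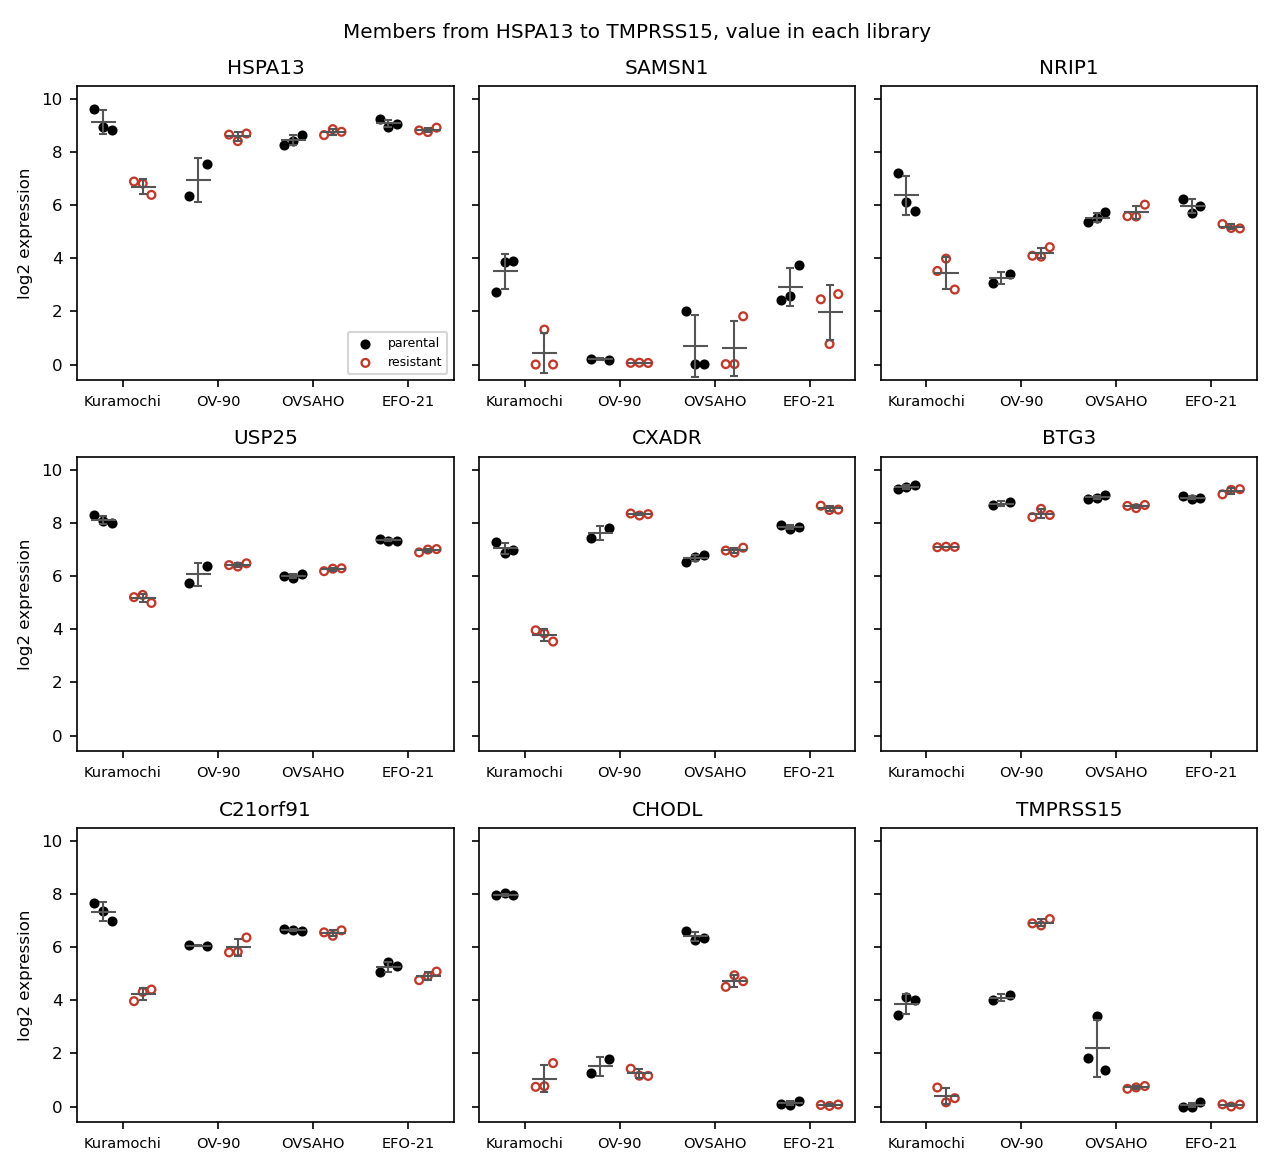
Log2 expression of the 9 members from HSPA13 to TMPRSS15 in each library, by line, with filled points for parental and open points for resistant libraries, and bars for the group mean and SD (n = 3, parental OV-90 n = 2). In Kuramochi every resistant point lies below every parental point in all 9 panels, while TMPRSS15 and HSPA13 are higher in resistant than in parental OV-90.

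Every resistant library lay below every parental library for all 9 members of the stretch and for 12 of the other 18, beside 30.5% of all genes. A difference of -2 or lower was met by the same 9 and none of the other 18, beside 4.43% of all genes. Both counts follow from how the genes were chosen. The median of the 9 ranged from -3.22 to -2.87 when each of the 6 Kuramochi libraries was left out in turn.

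The members did not place either edge of the stretch closely. RBM11, a splicing regulator that ends 0.14 Mb before HSPA13 starts, had log2 values of 1.75, 2.04 and 1.80 in parental and 1.35, 1.60 and 0.36 in resistant Kuramochi, with all but 1 at the bottom, so a difference of the size of the stretch could not have been seen. TPTE, a phosphatase-like gene of testis that ends 4.6 Mb before RBM11 starts, had 5.91, 5.85 and 5.93 against 5.18, 5.11 and 5.21 (difference -0.73, SE 0.11). TPTE differed by less than any member of the stretch, though its groups did not overlap. After TMPRSS15, no member was found for 2.51 Mb, up to NCAM2.

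The 4 members from NCAM2 to APP did not share the large difference. NCAM2, a neural cell adhesion molecule, had log2 values of 4.89, 4.36 and 4.48 in parental and 3.98, 4.05 and 4.06 in resistant Kuramochi (difference -0.55, SE 0.20). JAM2, a junctional adhesion molecule, was the other way round, at 3.13, 2.56 and 3.55 against 4.29, 3.68 and 4.08 (difference 0.94, SE 0.32). NCAM2 was below its parental range in all 3 resistant libraries and JAM2 above it. GABPA, the DNA-binding subunit of the GA-binding protein, differed by -0.16 (SE 0.22) and APP by -0.19 (SE 0.12), with overlapping groups in both. APP, at 11.5 to 11.9 in parental and 11.4 to 11.6 in resistant libraries, was among the members with the highest values throughout.

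At the limit after APP that split the list, the last members inside were GABPA and APP and the first outside were CYYR1 at -0.61, where all values lay at the bottom, and N6AMT1, a methyltransferase of a translation release factor, at -0.26. No step was seen at that limit. Taking all 15 members up to it gave a median of -2.44, which rests on the 9 of the stretch.

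Beyond APP, 11 of the 12 measured members were lower in resistant Kuramochi, beside 11069 of all 21658 genes, and most by little. LTN1, the ubiquitin ligase of ribosome quality control, differed by -0.67 (SE 0.31), the histone H2A deubiquitinase USP16 by -0.47 (SE 0.07), CCT8 of the chaperonin TRiC by -0.49 (SE 0.06) and RWDD2B by -0.47 (SE 0.16). SOD1 differed by -0.22 (SE 0.09) and SCAF4, which acts in transcript termination, by -0.36 (SE 0.12). The haem-regulated repressor BACH1 differed by -0.75 (SE 0.29). These 7 genes had between 59.5% and 85.6% of their parental linear level, against 10.4% to 20.8% for the 6 members of the stretch that stayed above the bottom.

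The largest differences of the flank were in TIAM1, HUNK and MAP3K7CL. TIAM1, an exchange factor of RAC1, had log2 values of 6.31, 5.85 and 5.84 in parental and 5.05, 5.15 and 4.86 in resistant Kuramochi (difference -0.98, SE 0.18). HUNK, a kinase related to AMPK, had 6.32, 6.07 and 5.93 against 4.96, 5.17 and 4.71 (difference -1.16, SE 0.18). Both were lower with no overlap, and both still had 44.8% or more of the parental linear level. MAP3K7CL went the opposite way, at 4.86, 4.56 and 4.38 in parental and 8.51, 8.63 and 8.60 in resistant libraries (difference 3.98, SE 0.14), the only member more than 1 higher. It lies between CCT8 and BACH1, which were both lower.

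**Figure D3:**
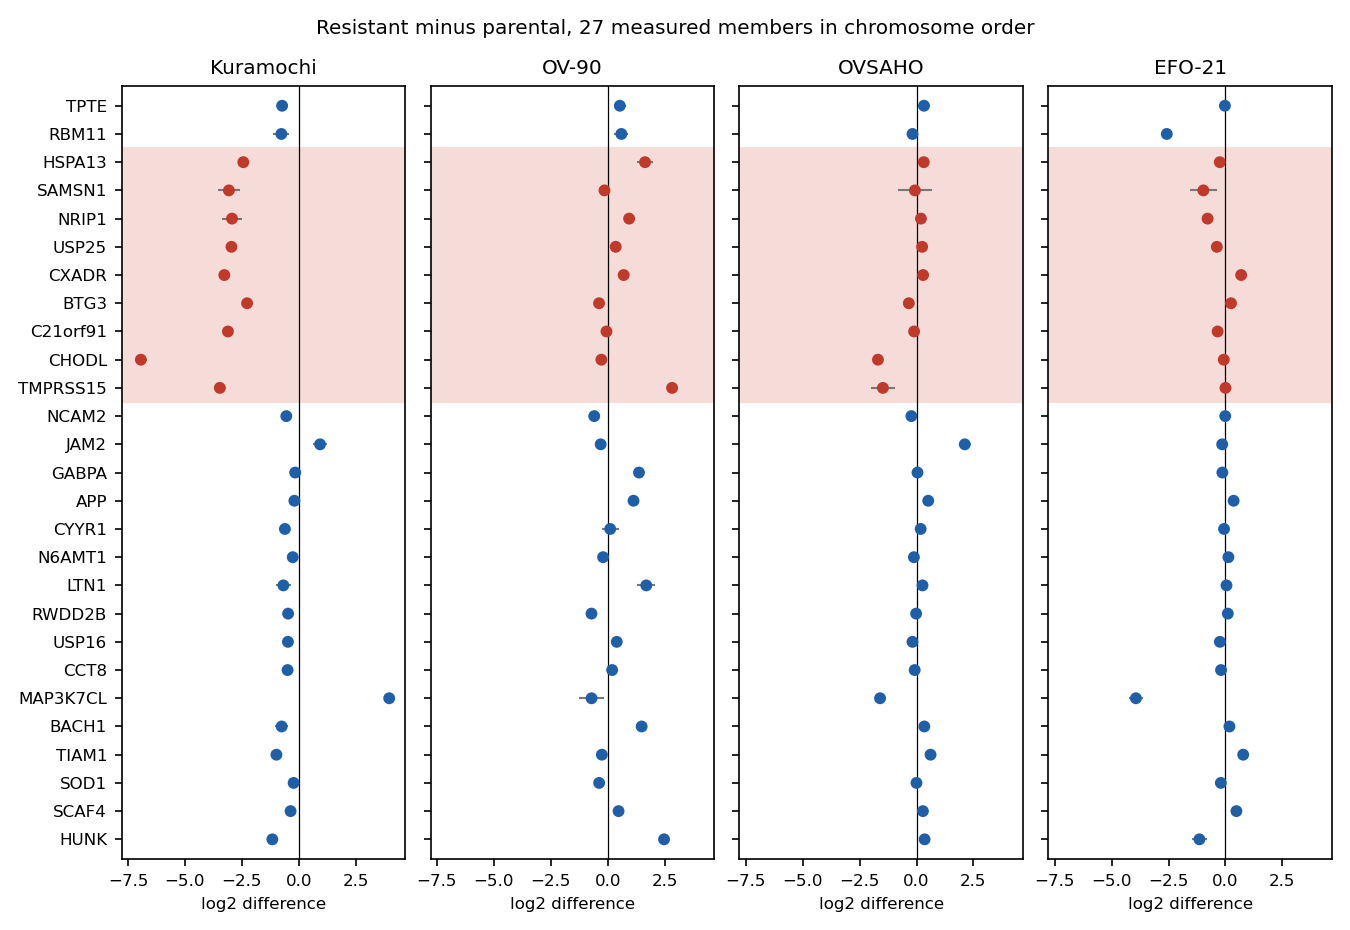
Difference of the mean log2 expression values, resistant minus parental, of the 27 measured members in chromosome order from top to bottom, 1 panel for each line. Horizontal bars are standard errors from limma, and the shaded band and red points mark the 9 members from HSPA13 to TMPRSS15, which lie below -2 in Kuramochi and at -1.70 or above in the other 3 lines.

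The members were also read against the rest of the chromosome. The 177 measured chromosome 21 genes outside the stretch that are not members had a median log2 difference of -0.35 in Kuramochi. Of them, 128 were lower, beside 11069 of all 21658 genes. The same 177 genes had medians of -0.14 in OV-90, 0.21 in OVSAHO and 0.10 in EFO-21. In Kuramochi the median was -0.34 for the 154 genes after HUNK and -0.51 for the 12 genes between APP and HUNK that are not members. Beside these stood a median of -0.48 for the 12 flanking members and differences of -2.27 or lower for the 9 members of the stretch.

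Another 22 measured genes start between the first and the last member. Of these, 7 differed by 1 or more on the log2 scale in Kuramochi, all of them lower. MIR99AHG, a noncoding host transcript of microRNAs, is the one other measured gene inside the stretch, and had log2 values of 5.43, 5.61 and 5.66 in parental and 2.79, 2.50 and 3.27 in resistant libraries (difference -2.71). With it, 10 of 10 measured genes of the stretch were lower by more than 2. The other 6 were the noncoding RNAs LINC00158 (-2.01), CYYR1-AS1 (-3.88) and LINC00113 (-1.76) and the pseudogenes BAGE2 (-1.19), GPX1P2 (-2.39) and HSPD1P7 (-1.48). For HSPD1P7 the groups overlapped. LINC00113 was at the bottom in every resistant library, so its difference is not a measured fold. LINC00158, CYYR1-AS1, GPX1P2 and HSPD1P7 each rest on 1 exon, and reads of the pseudogenes may be shared with related copies. CYYR1-AS1 lies on the strand opposite CYYR1, and whether strand was used in counting is not given in the sources used here.

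Across the 8 groups, resistant Kuramochi had the lowest mean of all for 6 of the 27 members, HSPA13, USP25, CXADR, BTG3, C21orf91 and, outside the stretch, N6AMT1, beside 13.1% of all genes. Choosing the genes on low values in resistant Kuramochi favours this count, so it is a description only. For the other 4 members of the stretch another group was lower. SAMSN1 was at the bottom in every OV-90 library, CHODL in every OV-90 and EFO-21 library and TMPRSS15 in every EFO-21 library, and NRIP1 was lowest in parental OV-90, at 3.09 and 3.41. Resistant Kuramochi, at 2.83 to 3.99, overlapped that range for NRIP1.

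The parental lines also differed in these genes. CHODL lay between 7.96 and 8.03 in parental Kuramochi, 6.29 and 6.61 in parental OVSAHO, and at the bottom in the other parental lines. USP25 lay between 8.0 and 8.31 in parental Kuramochi, 7.33 and 7.40 in EFO-21, 5.76 and 6.39 in OV-90 and 5.95 and 6.09 in OVSAHO. For USP25 the last 2 lines overlapped, and the other parental lines were separated from each other. For BTG3 the parental lines were close, from 8.68 in OV-90 to 9.44 in Kuramochi, and resistant Kuramochi at 7.10 to 7.12 was below the lowest value of any other library, 8.23 in resistant OV-90. CXADR was moderate to high in 7 groups, from 6.56 to 8.66, and at most 3.97 in resistant Kuramochi.

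The other 3 lines were not used to choose the genes, and there the resistant and parental forms were compared with limma, with Benjamini-Hochberg adjustment over all genes and a call at an adjusted p under 0.05 and at least 2-fold. In OV-90, 7 of the 27 members were higher and 0 were lower in resistant cells, beside 9.5% of all genes higher and 6.56% lower. At an unadjusted p under 0.05 from limma with no fold threshold, 4 members were lower and 11 higher, beside 25.8% and 25% of all genes. TMPRSS15 rose from 4.0 and 4.20 in parental to 6.90, 6.83 and 7.07 in resistant OV-90 (log2 difference 2.83, SE 0.15, adjusted p = 0.0039 in limma). HUNK rose from 3.03 and 2.80 to 5.44, 5.45 and 5.29 (difference 2.48, SE 0.19, adjusted p = 0.0061 in limma). TMPRSS15 thus moved up in resistant OV-90 while its values were lower in resistant Kuramochi, and HUNK likewise.

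The other 5 calls in OV-90 were of smaller differences. BACH1 rose from 4.45 and 4.56 to 6.05, 5.83 and 6.12 (difference 1.49, SE 0.17, adjusted p = 0.011 in limma). GABPA rose by 1.38 (SE 0.16, adjusted p = 0.012), LTN1 by 1.70 (SE 0.40, adjusted p = 0.035), HSPA13 by 1.64 (SE 0.37, adjusted p = 0.032) and APP by 1.14 (SE 0.25, adjusted p = 0.031), all by limma. The parental libraries differed from each other in LTN1 (4.30 and 5.56), HSPA13 (6.36 and 7.55) and APP (9.96 and 10.8), with every resistant value above both. None of these 5 passed the test when any 1 of the 3 resistant libraries was left out, with limma adjusted p from 0.055 to 0.12, and HUNK did not without library 13 (adjusted p = 0.052). Leaving out library 13 left 1 member called higher, TMPRSS15, and leaving out library 14 or 15 left 2. Without parental library 2, APP differed by 0.73, which is under 2-fold.

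In OVSAHO, 2 members fell and 1 rose, beside 3.83% of all genes lower and 3.93% higher. At an unadjusted p under 0.05 in limma, with no fold threshold, 5 were lower and 8 higher, beside 21.4% and 22.9% of all genes. CHODL fell from 6.61, 6.29 and 6.37 in parental to 4.51, 4.95 and 4.72 in resistant OVSAHO (difference -1.70, SE 0.15, adjusted p = 0.00088 in limma). It was the one member of the stretch called lower at 2-fold in OV-90, OVSAHO or EFO-21 fitted alone, and its resistant values in OVSAHO were above the bottom. BTG3 was lower in OVSAHO by less than 2-fold (difference -0.34, SE 0.05, adjusted p = 0.0046 in limma). MAP3K7CL fell from 2.67, 2.32 and 2.64 to 1.06, 1.07 and 0.67, all at the bottom (difference -1.60, SE 0.19, adjusted p = 0.0023 in limma). JAM2 rose from 2.66, 2.72 and 1.94 to 4.37, 4.71 and 4.60 (difference 2.12, SE 0.26, adjusted p = 0.0024 in limma). TMPRSS15, at 1.82, 3.41 and 1.36 in parental and 0.67, 0.72 and 0.77 in resistant OVSAHO, did not pass (difference -1.48, SE 0.52, adjusted p = 0.078 in limma), but passed without parental library 9 (-1.90, adjusted p = 0.043) and in the joint fit of all 23 libraries (SE 0.36, adjusted p = 0.0047).

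In EFO-21, 3 members fell and 0 rose, beside 7.15% of all genes lower and 7.11% higher. At an unadjusted p under 0.05 from limma with no fold threshold, 9 members were lower and 5 higher, beside 27% and 28.6% of all genes. MAP3K7CL fell from 4.62, 4.54 and 5.29 in parental to 0.39, 0.99 and 1.25 in resistant EFO-21 (difference -3.93, SE 0.31, adjusted p = 0.00027 in limma), and RBM11 fell from 3.69, 3.03 and 3.24 to 0.65, 0.64 and 0.93 (difference -2.58, SE 0.21, adjusted p = 0.00031 in limma). Both ended at the bottom, as did HUNK, which fell by 1.14 on the log2 scale (SE 0.33, adjusted p = 0.030 in limma). HUNK did not pass without any of 5 libraries (10, 12, 22, 23 and 24), at adjusted p from 0.070 to 0.088. No member of the stretch was called in EFO-21. NRIP1 differed by -0.79 (SE 0.15, adjusted p = 0.0077 in limma) and USP25 by -0.38 (SE 0.05, adjusted p = 0.0023 in limma), and CXADR was 0.69 higher (SE 0.06, adjusted p = 0.00046 in limma), all under 2-fold.

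**Figure D4:**
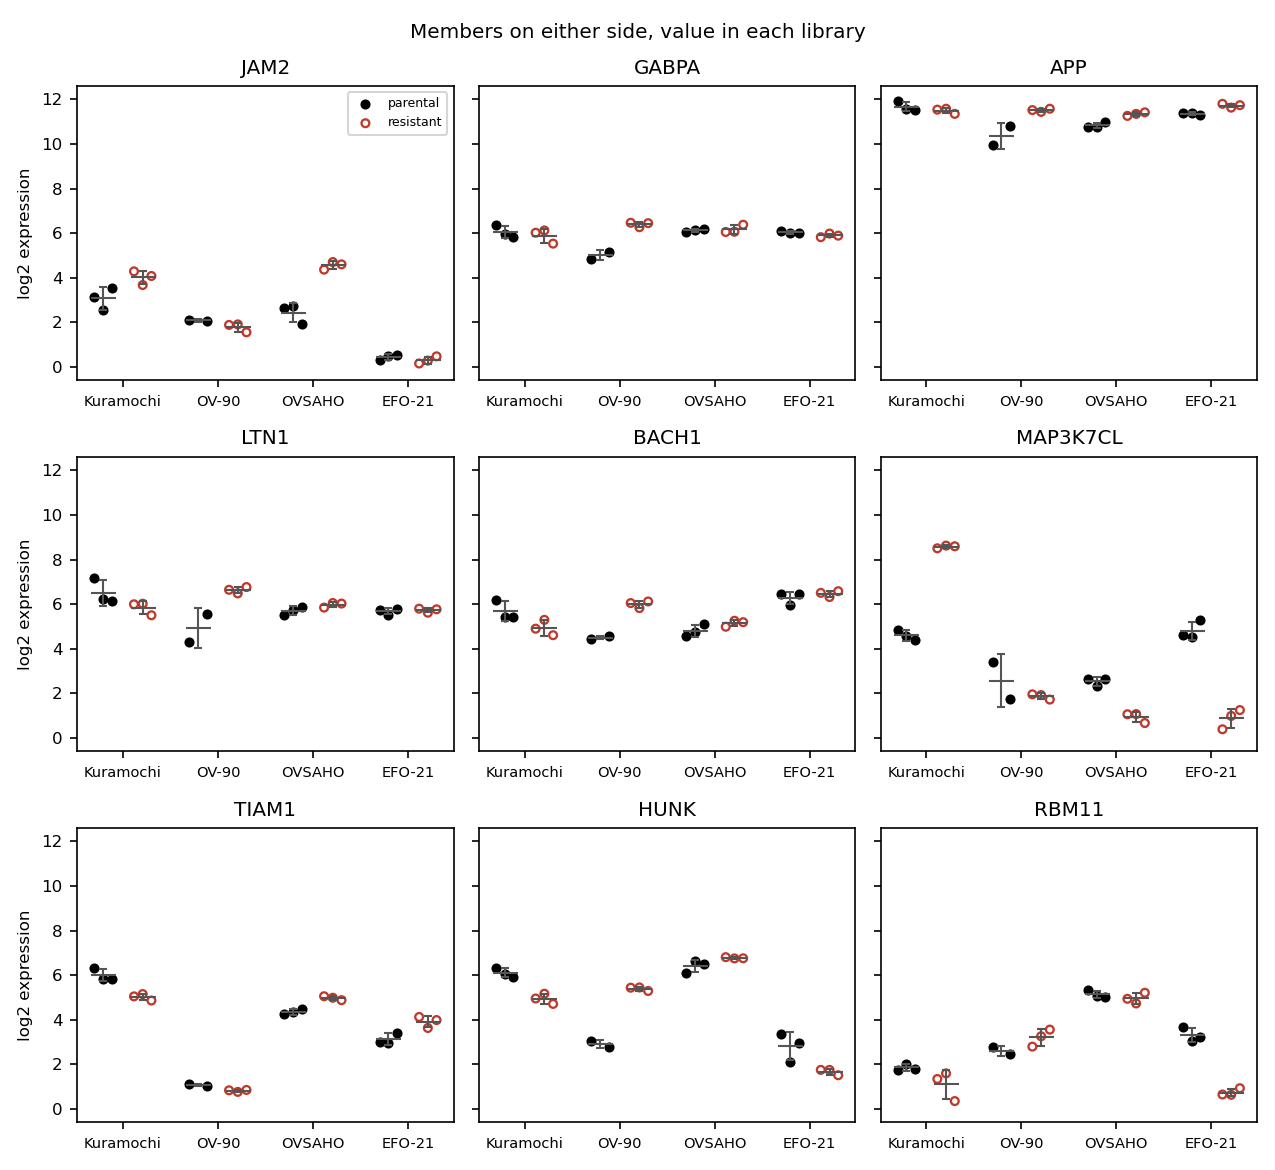
Log2 expression of 9 members outside the stretch in each library, by line, drawn with filled points for parental and open points for resistant libraries and bars for the group mean and SD (n = 3, parental OV-90 n = 2). MAP3K7CL is highest in resistant Kuramochi, at 8.51 to 8.63, and lower in resistant than in parental OVSAHO and EFO-21, and JAM2 is higher in resistant OVSAHO.

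Over the 3 lines together, with line as a block, 1 member fell and 0 rose, beside 2.82% of all genes lower and 2.41% higher. The member was MAP3K7CL (difference -2.18, SE 0.41, adjusted p = 0.00098 in limma), which was higher in resistant Kuramochi. At an unadjusted p under 0.05 from limma with no fold threshold, 4 members were lower and 7 higher, beside 22.7% and 22.9% of all genes. Among those under 2-fold, CXADR was higher by 0.55 (SE 0.08, adjusted p = 0.00013 in limma), and its difference was above 0 in each of the 3 lines, at 0.71 in OV-90, 0.29 in OVSAHO and 0.69 in EFO-21. APP was higher by 0.64 (SE 0.12, adjusted p = 0.00087 in limma) and SCAF4 by 0.41 (SE 0.06, adjusted p = 0.00021 in limma). At an adjusted p under 0.05 with no fold threshold, 3 members were lower and 5 higher. CHODL, in the stretch, was lower by 0.71 (SE 0.23, adjusted p = 0.025 in limma), but lay at the bottom in every OV-90 and EFO-21 library. Without EFO-21 it was called lower (difference -1.06, adjusted p = 0.015 in limma). The 9 members of the stretch had a median log2 difference of 0.05 over the 3 lines, with 0 called at 2-fold. Their medians were 0.35 in OV-90, -0.07 in OVSAHO and -0.25 in EFO-21, against -3.07 in Kuramochi.

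The resistant effects also differed among those 3 lines. By limma tests of the difference between lines, in either direction, 8 members were called between OV-90 and OVSAHO, 10 between OV-90 and EFO-21 and 6 between OVSAHO and EFO-21, beside 17.1%, 24.9% and 15.7% of all genes. HUNK differed in all 3 pairs, by 3.62 between OV-90 and EFO-21 (SE 0.34, adjusted p = 2.1e-07 in limma). TMPRSS15 differed by 4.31 between OV-90 and OVSAHO (SE 0.54, adjusted p = 1e-05 in limma). JAM2, which rose in OVSAHO, had an OV-90 effect minus OVSAHO effect of -2.42 (SE 0.40, adjusted p = 0.00016 in limma) and an OVSAHO effect minus EFO-21 effect of 2.26 (SE 0.37, adjusted p = 0.00013 in limma). JAM2 was at the bottom in every EFO-21 library, HUNK in resistant EFO-21 and TMPRSS15 in resistant OVSAHO. Differences that involve these groups are not measured folds.

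Genes that work with the members but are not members were taken from fixed lists, with 85 of 87 measured. They include IGSF5 and TFF1, which lie on chromosome 21 beyond HUNK and were not called in Kuramochi. In Kuramochi 10 of the 85 were higher and 5 lower by limma, beside 11.8% of all genes higher and 10.6% lower. The counts were 15 higher and 4 lower in OV-90, 3 and 2 in OVSAHO and 2 and 7 in EFO-21, to be read beside the shares of all genes given above for those lines. The other 6 HSP70 genes, the other 7 subunits of the chaperonin TRiC and the other 9 genes of ribosome quality control had no call in any line, with medians in Kuramochi of -0.16, -0.23 and 0.03. Of 11 genes around BACH1, which represses haem and antioxidant genes, 5 rose and 1 fell in Kuramochi, where BACH1 itself differed by -0.75, and 3 rose and 0 fell in OV-90, where BACH1 rose by 1.49. Those of Kuramochi include HMOX1, the haem-degrading oxygenase (difference 1.29, SE 0.11, adjusted p = 0.00026 in limma), TXNRD1 (1.09, SE 0.13, adjusted p = 0.0011 in limma) and the paralog BACH2 (1.04, SE 0.22, adjusted p = 0.0093 in limma). The cystine transporter SLC7A11 fell by 1.52 on the log2 scale (SE 0.39, adjusted p = 0.020 in limma). BACH2 rose in all 4 lines, by 1.84 in OV-90, 1.36 in OVSAHO and 1.38 in EFO-21.

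Relatives of the adhesion and exchange factor members moved unevenly. In Kuramochi the junctional protein F11R fell by 1.55 on the log2 scale (SE 0.12, adjusted p = 0.00017 in limma) and ESAM rose from the bottom to a mean of 4.18 (adjusted p = 0.00012 in limma), which is not a measured fold. TIAM2, the paralog of TIAM1, rose in Kuramochi by 2.26 (SE 0.14, adjusted p = 6.8e-05 in limma) and in OVSAHO by 1.78, and in EFO-21 it fell by 1.64 on the log2 scale. In Kuramochi, GREB1, an oestrogen receptor target, fell by 2.08 on the log2 scale (SE 0.18, adjusted p = 0.00026 in limma). It was the 1 call there among the 7 measured oestrogen and retinoid receptors and target genes, whose median was 0.01. BTG2, a relative of BTG3, fell by 1.07 on the log2 scale in Kuramochi (SE 0.11, adjusted p = 0.00051 in limma) and rose by 2.10 in OV-90 (SE 0.31, adjusted p = 0.017 in limma). NCAM1 rose in OV-90 from the bottom to a mean of 3.82, which is not a measured fold, and fell by 2.99 on the log2 scale in EFO-21, while NCAM2 itself was at the bottom in all libraries of both lines.

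The summed epithelial and the summed Müllerian and serous markers were also lower in resistant than in parental Kuramochi. The summed log2 level of 6 epithelial markers was 47.5 to 48.4 in parental and 33.3 to 34.4 in resistant Kuramochi, and the number above the library median went from 4 to 2, with CDH1 at the bottom in resistant cells. The sum of 6 Müllerian and serous markers was 49.2 to 49.8 in parental and 33.9 to 34.7 in resistant libraries, with MUC16 and EMX2 at the bottom in the latter. Blood and endothelial markers summed to 13.1 to 18.3 in parental and 11.7 to 12.5 in resistant libraries, with PECAM1 at the bottom in both. Of these 6, the number above the library median in every library went from 0 to 1, which was CD68. In OVSAHO the epithelial sum was also lower, at 48.9 to 49.3 in parental and 38.3 to 38.8 in resistant libraries. In OV-90 this epithelial sum was 62.54 to 62.89 in parental and 60.29 to 60.67 in resistant libraries. In EFO-21 the groups overlapped, at 56.19 to 56.85 in parental and 55.92 to 56.24 in resistant libraries. The Müllerian and serous sum was 55.3 to 55.9 in parental and 49.7 to 50.2 in resistant OVSAHO. In EFO-21 it was higher in resistant cells, at 42.9 to 43.6 in parental and 45.1 to 46.0 in resistant libraries. The part of these markers in the values of the stretch was not tested.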

How the data were processed

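RNA was measured by RNA-seq in 23 libraries (Illumina TruSeq Stranded mRNA). The authors aligned reads to GRCh37/hg19, combined exon reads over repeat assays, left out weakly covered exons and fitted a robust linear model per gene. They then quantile normalized the log2 gene values across libraries and deposited these, 16448 genes from the model and 5210 as means of log2 exon values. The table holds no counts, so depth is unknown and no counting interval is given, and quantile normalization hides a shift shared by most genes. Column names carry library numbers but no replicate numbers, and 0 columns belonged to other samples.

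Symbols were assigned to 20745 of 21658 gene IDs (95.8%) from RefSeq (GRCh38.p14, names only), and positions came from GENCODE release 44 lifted to GRCh37 for 19673. N6AMT1 is listed as HEMK2 in RefSeq. Each line was fitted alone with limma 3.58.1 in R 4.3.3 (lmFit, eBayes with trend, two-sided, Benjamini-Hochberg over all genes, no filter, no pseudocount), then 3 lines with line as a block, and differences between lines in a fit of 8 group means. The study's methods name no test for these libraries. Exact permutation of 3 against 3 libraries cannot go below p = 0.1, so none is given, and p-values cover the spread between these libraries. limma was tested on simulated data. The 30 members and all lists were chosen with earlier results of these data known, and the stretch from HSPA13 to TMPRSS15 after its values were seen.

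Named were all members, other genes of the window that differ by 1 or more in Kuramochi, up to 4 called partner genes a list, and the 3 genes with the most similar profile. Alternatives were 1 joint fit, no trend, weak genes left out (mean below the 25th percentile), recentred medians, 1.5-fold or no fold threshold, and each library or line left out.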

Additional observations from a re-analysis of the deposited data

Results flagged for a closer look

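The effects of resistance on 12 members differed between pairs of the 3 lines not used to choose them, 24 differences in all, each called by limma's test of the difference itself at an adjusted p under 0.05 and at least 2-fold. All are differences of log2 differences. OV-90 minus EFO-21 was 3.18 for RBM11, 1.89 for HSPA13, 1.73 for NRIP1, 2.83 for TMPRSS15, 1.51 for GABPA, 1.65 for LTN1, 3.23 for MAP3K7CL, 1.32 for BACH1, 3.62 for HUNK and -1.03 for TIAM1. OV-90 minus OVSAHO was 1.33 for HSPA13, 1.42 for CHODL, 4.31 for TMPRSS15, 1.34 for GABPA, 1.44 for LTN1, 1.15 for BACH1, 2.12 for HUNK and -2.42 for JAM2. OVSAHO minus EFO-21 was 2.4 for RBM11, 2.26 for JAM2, 2.33 for MAP3K7CL, 1.5 for HUNK, -1.62 for CHODL and -1.48 for TMPRSS15. In EFO-21, CHODL, TMPRSS15 and JAM2 were at the bottom in every library, as were CHODL and TIAM1 in OV-90. Resistant EFO-21 was at the bottom for RBM11, MAP3K7CL and HUNK, and resistant OVSAHO for MAP3K7CL and TMPRSS15. Differences that involve these groups are not measured folds.

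The comparisons of 1 line with 2 others share that line's libraries, and those with OV-90 rest on its 2 parental libraries. Without parental library 2, OV-90 minus OVSAHO was 0.73 for HSPA13 (adjusted p = 0.083 in limma) and 0.81 for LTN1 (adjusted p = 0.12 in limma), so neither passed. TMPRSS15 between OVSAHO and EFO-21 was -0.87 without parental OVSAHO library 8 (adjusted p = 0.057 in limma) and also missed the threshold without any of 6 other libraries (10, 11, 19, 20, 22 and 24). TIAM1 between OV-90 and EFO-21 was just under 2-fold without library 2, 10, 11, 22 or 24. The causes were not tested.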

How the results depend on the processing

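No paired analysis was possible because the columns carry no replicate numbers. The 1 joint fit, the fit without trend and recentred medians moved no count of called members by over 1.5 times. With a 1.5-fold threshold, 1 member was lower in OV-90, 2 were higher in OVSAHO and 2 higher in EFO-21. With no fold threshold, 2 were lower in OV-90, 4 lower and 5 higher in OVSAHO, and 7 lower and 5 higher in EFO-21. With weakly expressed genes left out, which removes weak members from the test, 1 was lower and 0 higher in OVSAHO, 0 lower in EFO-21 and 0 lower over the 3 lines, and between lines 0 were lower for OV-90 minus OVSAHO and 0 lower and 1 higher for OVSAHO minus EFO-21. Over the lines, 2 were lower without OV-90, and 2 lower and 1 higher without EFO-21. With each library left out in turn, the counts ranged from 0 to 1 lower and 1 to 8 higher in OV-90, from 2 to 3 lower in OVSAHO with 1 higher throughout, and from 2 to 3 lower in EFO-21 with 0 higher throughout. In Kuramochi, whose values chose the members, the numbers past the same limma thresholds were 10 to 11 lower and 1 to 2 higher. The shares of all genes in the main fit were 10.6% and 11.8%. These member numbers follow from how the members were chosen and are a description only, not a test. Between lines the counts ranged from 6 to 8 higher with 1 lower (OV-90 minus OVSAHO), from 0 to 1 lower and 9 to 11 higher (OV-90 minus EFO-21), and from 1 to 2 lower with 4 higher (OVSAHO minus EFO-21). The Kuramochi medians ranged from -2.59 to -2.28 up to APP, from -0.50 to -0.46 beyond it and from -3.22 to -2.87 from HSPA13 to TMPRSS15, and the means in place of the medians were -2.13 up to APP and -0.21 beyond it. No called difference of a member changed sign under these alternatives, while 31 pairs of a member and a comparison with no call did so at least once. The unknown depth and 2 parental OV-90 libraries limit what can be read for weak members and for OV-90.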

Other observations

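Over the 23 libraries, the mean profile of the 8 members up to APP that were above the bottom in every library was most like that of UBA2 (chromosome 19, Pearson r 0.947), STK26 (chromosome X, r 0.906) and STARD7 (chromosome 2, r 0.878) among genes outside chromosome 21. UBA2 is a subunit of the SUMO activating enzyme, and STK26 a kinase of the STE20 group. STK26 was lower by 4.31 on the log2 scale in resistant Kuramochi (log2 difference -4.31), UBA2 by less (-0.82) and STARD7 likewise (-0.64), and in OV-90 they differed by 1.0, 0.71 and 0.94. The libraries share groups, so these likenesses describe the 8 group levels rather than independent points.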
